A study of Mus musculus with 4 samples.

Results

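The Ser2P ratio of 4 p53 target genes, TRP53INP1, GADD45B, BTG2 and CCNG1, was followed at transcription start sites (TSS) and transcription end sites (TES). They are the rows of the deposited tables with these gene symbols, and all 4 were in both tables, among 3112 listed for the TSS and 3030 for the TES. The samples were B16F10 cells, an established mouse melanoma line, either lacking Carm1, an arginine methyltransferase (Carm1 KO), or parental with the genotype WT (control). Short RNA held in the RNA polymerase II (Pol II) complex was sequenced after nuclease digestion of chromatin and immunoprecipitation (mNET-seq). One antibody recognised Pol II phosphorylated at serine 2 of its carboxy-terminal domain (Ser2P). The other (clone 8WG16), against the same domain, gave the libraries labelled Pol II. Each of the 4 libraries came from 3 sets of cells pooled after nuclease treatment, so there was 1 library per group and no spread between replicates. Whether the Carm1 KO cells are a single clone was not given in the sources used here.

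p53 is a transcription factor that is activated by DNA damage and other stress and switches on genes for growth arrest, repair and cell death. TRP53INP1 encodes a stress protein that works with the kinase HIPK2 in p53 activation and binds ATG8 proteins in autophagy. GADD45B encodes a stress sensor that binds the kinase MAP3K4 and is also induced by NF-kB and TGF-beta. BTG2 encodes an antiproliferative adaptor of the CCR4-NOT deadenylase, and CCNG1 encodes cyclin G1, which brings the phosphatase PP2A to MDM2, the ubiquitin ligase of p53. Ser2 phosphorylation marks elongating Pol II and normally builds up towards the ends of genes.

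The TSS ratio was taken around gene starts, in a window that is not stated, so promoters are shown as the sequence around the measured position, for GADD45B, BTG2 and CCNG1; TRP53INP1 is named only. The windows run from 250 bases before to 50 bases after the RefSeq start on GRCm38.p6, and all 3 are RefSeq sequences. They cover chr10:80929841-80930140 on the plus strand for GADD45B, chr1:134079106-134079405 on the minus strand for BTG2 and chr11:40755237-40755536 on the minus strand for CCNG1. Capitals mark every exact match, on either strand, to 5 motifs. They are TATAAA (the TATA box), TGACGTCA (the cyclic AMP response element), CCAAT (the CCAAT box), GGGCGG (the GC box) and the p53 half-site consensus, RRRCWWGYYY. In this consensus R is A or G, W is A or T and Y is C or T. Adjoining or overlapping matches run together.
GADD45B: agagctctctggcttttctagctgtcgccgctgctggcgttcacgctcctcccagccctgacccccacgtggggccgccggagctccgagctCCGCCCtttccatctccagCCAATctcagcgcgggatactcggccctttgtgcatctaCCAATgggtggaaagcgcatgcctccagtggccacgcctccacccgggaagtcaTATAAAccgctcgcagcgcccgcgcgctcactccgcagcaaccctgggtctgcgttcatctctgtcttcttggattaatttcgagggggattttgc
BTG2: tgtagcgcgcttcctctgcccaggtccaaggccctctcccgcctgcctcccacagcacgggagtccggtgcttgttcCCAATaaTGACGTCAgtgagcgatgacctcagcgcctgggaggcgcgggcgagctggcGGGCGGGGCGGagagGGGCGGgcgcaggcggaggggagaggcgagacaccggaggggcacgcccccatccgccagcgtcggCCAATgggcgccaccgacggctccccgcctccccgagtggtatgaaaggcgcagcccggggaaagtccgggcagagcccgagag
CCNG1: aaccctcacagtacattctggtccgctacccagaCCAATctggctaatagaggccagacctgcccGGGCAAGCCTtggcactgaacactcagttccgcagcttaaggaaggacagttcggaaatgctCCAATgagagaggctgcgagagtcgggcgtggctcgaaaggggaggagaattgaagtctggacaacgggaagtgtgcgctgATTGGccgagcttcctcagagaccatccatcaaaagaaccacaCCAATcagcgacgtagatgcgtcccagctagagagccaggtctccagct

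All 3 promoters held CCAAT, which was present in 37.4% of 32851 RefSeq promoter windows of 300 bases and in 40.8% of the 3034 windows of genes in the deposited tables. GADD45B had TATAAA at -46 to -41, an element found in 13.6% of all windows and 6.56% of those of listed genes. BTG2 had TGACGTCA at -166 to -159 (1.79% of all windows, 5.17% of those of listed genes). It also had 3 copies of GGGCGG, of which 2 overlapped. GADD45B had 1 copy of GGGCGG, on the opposite strand, and this motif was in 35.7% of all windows and 67.0% of those of listed genes. CCNG1 had a single exact p53 half-site match, GGGCAAGCCT, at -185 to -176 (8.36% of all windows, 6.03% of those of listed genes). The bases directly before this match, agacctgccc, differ from the consensus at 1 base and were not marked, because only exact matches were searched. GC content was 62.0% for GADD45B, 72.0% for BTG2 and 55.7% for CCNG1, against a median of 52.7% over all windows. These matches describe letters in the windows and no binding was measured.

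In GENCODE M21 on GRCm38, TRP53INP1 spans chr4:11156431-11174379 on the plus strand (17949 bp) and GADD45B spans chr10:80930073-80932204 on the plus strand (2132 bp). BTG2 spans chr1:134075170-134079120 on the minus strand (3951 bp) and CCNG1 chr11:40748552-40755311 on the minus strand (6760 bp). The RefSeq starts differ from these gene starts by 18 bases for GADD45B, 35 for BTG2 and 25 for CCNG1. No other annotated gene came within 1000 bp of the start or end of any of the 4. The nearest to any of these positions was Nudcd2, 8506 bp from the end of CCNG1.

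The deposited tables give a ratio of Ser2P signal to another signal that is not named in the sources used here, with no read counts, so depth is unknown. A different ratio can come from more Ser2P signal or from a smaller divisor, and fewer cells or less RNA per cell cannot be told apart. Over all listed genes the median TSS ratio was 0.166 in Carm1 KO and 0.0809 in control cells, and the median TES ratio was 2.99 in Carm1 KO and 1.71 in control cells. The scale between libraries is not given, so each change is also stated relative to the median change of all genes, 1.17 at the TSS (2859 genes) and 0.85 at the TES (3016 genes) on the log2 scale. Of 10 melanocyte and melanoma markers 6 were listed at the TSS and 4 at the TES, with ratios above 0 in both conditions. Of 11 markers of other cells none was listed in either table. The rule by which genes were listed is not given, so these counts do not identify the cells. Carm1 itself was not analysed here.

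At the TSS the 4 genes formed 2 pairs. TRP53INP1 and GADD45B had several times higher ratios in Carm1 KO cells, while BTG2 and CCNG1 had nearly equal ratios in both kinds of cell. The 4 genes had been picked, with these changes known, as the 2 largest and 2 smallest TSS changes of a shorter list of p53 targets, so the split is set by that choice. It is given as a description.

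TRP53INP1 had a TSS ratio of 0.169 in Carm1 KO and 0.0288 in control cells, which is 5.87-fold higher or a log2 change of 2.55. Its change ranked 324th from the top of 2859 genes. The gene stood at percentile 51.1 of all TSS ratios in Carm1 KO cells and at percentile 16.1 in control cells, so it lay in the middle of the distribution in Carm1 KO cells and low in it in control cells.

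GADD45B had a TSS ratio of 0.0803 in Carm1 KO and 0.0172 in control cells, 4.67-fold higher (log2 change 2.22, rank 483). Among all TSS ratios it stood at percentile 23.7 in Carm1 KO and 9.27 in control cells. It was thus below the middle of the distribution in both.

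BTG2 had a TSS ratio of 0.0804 in Carm1 KO and 0.0814 in control cells, 0.987-fold (log2 change -0.02, rank 2462). Because most genes were higher, the same ratio placed BTG2 at percentile 23.8 in Carm1 KO cells and at percentile 50.2, the middle, in control cells.

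CCNG1 had a TSS ratio of 0.0253 in Carm1 KO and 0.0271 in control cells, 0.936-fold (log2 change -0.10, rank 2507). It stood at percentile 8.74 in Carm1 KO and 14.9 in control cells, low in both. Within 1e-09 of relative difference, its Carm1 KO ratio was also that of KLF10 and its control ratio that of 4 other genes, including ADAR and RHOJ, and the Carm1 KO ratio of GADD45B was that of PSMD14. Such sharing was common: 55.2% of TSS ratios above 0 in Carm1 KO and 39.6% in control cells were shared with another gene. The TSS ratios of TRP53INP1 and BTG2 were shared with none.

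Against the rest of the genes, 2 of the 4 were at least 1.5-fold higher at the TSS as deposited, where 71.2% of all genes were. None of the 4 was 1.5-fold lower, and 5.60% of all genes were. BTG2 and CCNG1 lay below 0 by less than that factor, on the side where 14.2% of all genes lay. Relative to the median of all genes, TRP53INP1 (1.39) and GADD45B (1.06) were at least 1.5-fold higher, as were 28.6% of genes. BTG2 (-1.19) and CCNG1 (-1.26) were at least 1.5-fold lower, as were 28.8% of genes. The choice of the 4 genes used these TSS changes, so nothing is read from the counts.

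**Figure D1:**
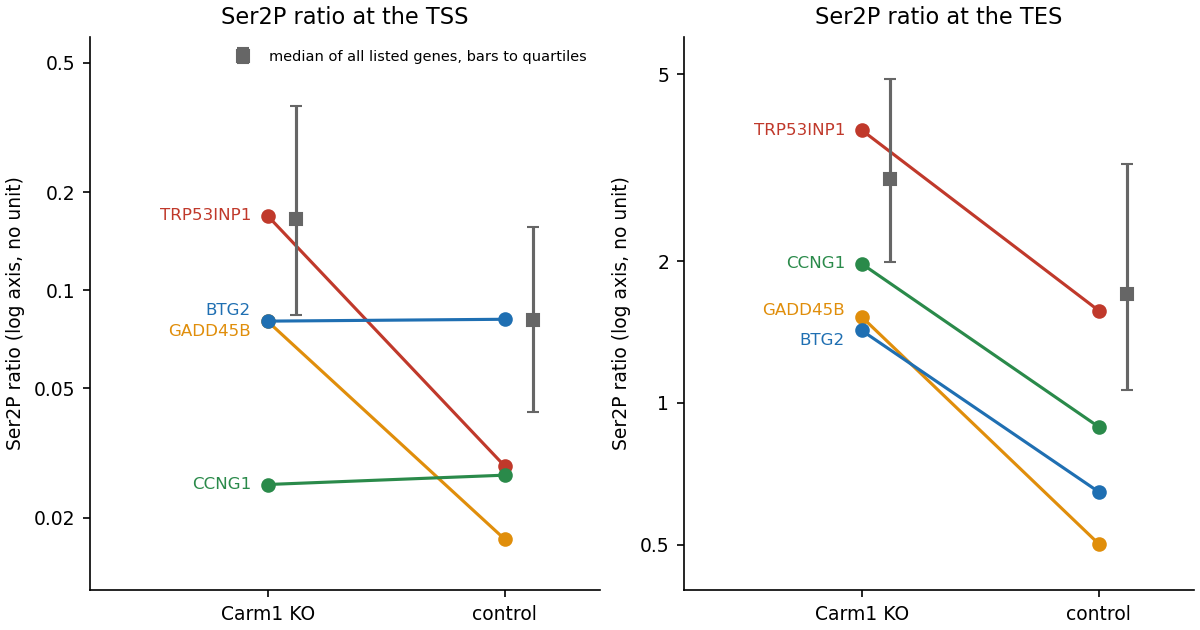
Ser2P ratio of the 4 genes in Carm1 KO and control cells at the TSS and TES, on log axes, 1 library per point; grey squares are the median of all listed genes with bars to the quartiles. At the TSS the lines of TRP53INP1 and GADD45B slope while those of BTG2 and CCNG1 are nearly flat, and at the TES all 4 are higher in Carm1 KO cells.

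At the TES all 4 genes had higher ratios in Carm1 KO cells, between 2.20-fold and 3.04-fold. The TES changes spanned 0.46 on the log2 scale, where the interquartile range of all genes was 0.83. The pair with nearly equal ratios at the TSS was therefore higher in Carm1 KO cells at the TES.

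TRP53INP1 had the highest TES ratio of the 4, 3.80 in Carm1 KO and 1.57 in control cells, 2.42-fold higher (log2 change 1.28, rank 565 of 3016). It stood at percentile 63.5 in Carm1 KO and 45.6 in control cells. GADD45B had a TES ratio of 1.52 in Carm1 KO and 0.501 in control cells, 3.04-fold higher (1.60, rank 198). Its change was the largest of the 4, at percentile 93.5 of all TES changes, yet its ratio stood only at percentile 13.9 in Carm1 KO and 4.14 in control cells.

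BTG2 had a TES ratio of 1.43 in Carm1 KO and 0.647 in control cells, 2.20-fold higher (1.14, rank 822). CCNG1 had a TES ratio of 1.98 in Carm1 KO and 0.889 in control cells, 2.22-fold higher (1.15, rank 801). These changes were nearly the same, at percentiles 72.8 and 73.5. In level BTG2 stood at percentile 12.2 in Carm1 KO and 6.49 in control cells, and CCNG1 at 24.5 in Carm1 KO and 14.9 in control cells. No other gene had the same TES ratio as any of the 4.

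All 4 were at least 1.5-fold higher at the TES as deposited, where 66.7% of genes were, and none was 1.5-fold lower, where 7.13% were. Relative to the median of all genes the changes were 0.43 for TRP53INP1, 0.75 for GADD45B, 0.29 for BTG2 and 0.30 for CCNG1. Only GADD45B was then 1.5-fold higher, as were 11.6% of genes, and none of the 4 was 1.5-fold lower, as were 22.0%. A count of 4 of 4 beside 66.7% does not set these genes apart at the TES.

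**Figure D2:**
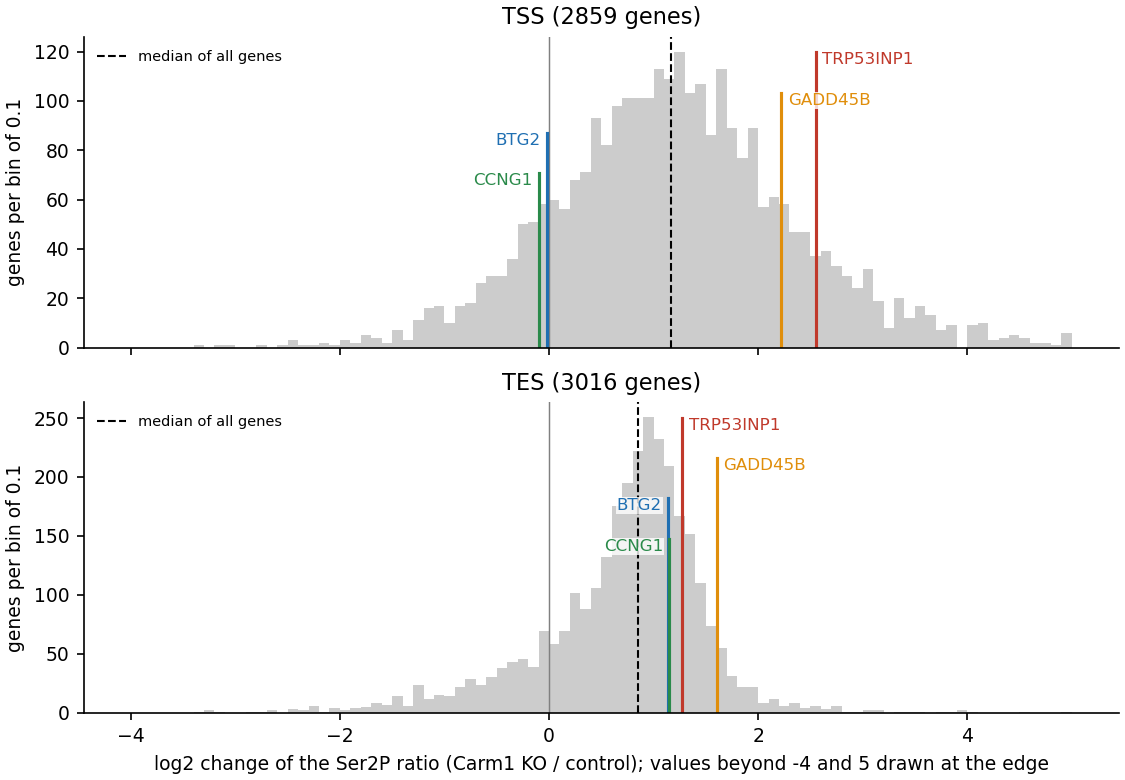
Number of genes by log2 change of the Ser2P ratio (Carm1 KO / control) at the TSS and TES, in bins of 0.1, with the 4 genes as coloured lines and the median of all genes dashed. At the TSS the genes lie at -0.10, -0.02, 2.22 and 2.55 on both sides of the median of 1.17, and at the TES all 4 lie between 1.14 and 1.60, above the median of 0.85.

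The order of the ratios among the 4 genes differed between the ends and between the cells. At the TSS it was TRP53INP1, BTG2, GADD45B and CCNG1 in Carm1 KO cells, where BTG2 was 0.0855% above GADD45B. In control cells it was BTG2, TRP53INP1, CCNG1 and GADD45B, where TRP53INP1 was 6.54% above CCNG1. With no replicates, neighbours this close cannot be put in order. At the TES TRP53INP1 was highest and CCNG1 next in both kinds of cell, and GADD45B was 6.89% above BTG2 in Carm1 KO cells, whereas BTG2 was 29.0% above GADD45B in control cells. The highest of the 4 ratios was 6.68 times the lowest at the TSS in Carm1 KO and 4.74 times in control cells. At the TES it was 2.67 times in Carm1 KO and 3.13 times in control cells. The ratio is not a read level per length, so this order says nothing of how strongly the genes are transcribed.

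The TES ratio was next divided by the TSS ratio of the same gene and cells. A factor on a whole library cancels in a comparison of this quotient between Carm1 KO and control cells only if it applies to both ends. BTG2 and CCNG1 had a steeper start-to-end gradient in Carm1 KO cells, TRP53INP1 had a flatter one, and GADD45B one flatter by a factor near the 1.5-fold threshold. For BTG2 the TES ratio was 17.7 times the TSS ratio in Carm1 KO and 7.94 times in control cells, a log2 shift of 1.16. For CCNG1 it was 78.0 times in Carm1 KO and 32.9 times in control cells, a shift of 1.25. CCNG1 thus ranked 279th of 2775 genes by this quotient in Carm1 KO cells, and 1011th in control cells. Its quotient divides by a small TSS ratio (0.0253 in Carm1 KO and 0.0271 in control cells), among the lowest 10% of mean TSS ratios.

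For TRP53INP1 the TES ratio was 22.5 times the TSS ratio in Carm1 KO and 54.5 times in control cells, a shift of -1.28. For GADD45B it was 19.0 times in Carm1 KO and 29.2 times in control cells, a shift of -0.62. Over all genes the median quotient was 15.7 in Carm1 KO and 19.5 in control cells, with a median shift of -0.40. BTG2 and CCNG1 stood at percentiles 90.0 and 90.9 of all shifts, TRP53INP1 at 24.7 and GADD45B at 43.4. The quotient in Carm1 KO cells was higher by at least 1.5-fold for 2 of the 4 genes and 19.8% of all genes, and at least 1.5-fold lower for the other 2 and 44.2% of all genes. The shift of GADD45B was within 1.5-fold with pseudocounts (-0.30) and relative to the median of all genes (-0.22). The shift contains the TSS change by which the genes were picked, so these counts are a description too.

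**Figure D3:**
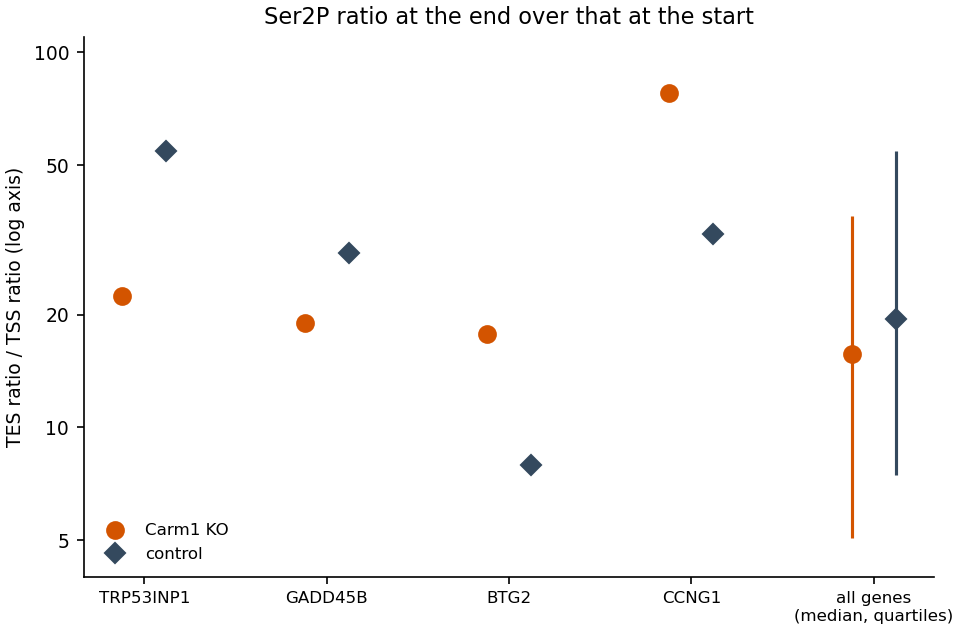
TES ratio divided by TSS ratio, on a log axis, for each of the 4 genes in Carm1 KO (circles) and control (diamonds) cells, with the median and quartiles of 2775 genes at the right. The circle lies above the diamond for BTG2 and CCNG1 and below it for TRP53INP1 and GADD45B.

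Set side by side, TRP53INP1 and GADD45B passed 1.5-fold upwards in Carm1 KO cells at both ends, like 49.2% of genes. BTG2 and CCNG1 were 1.5-fold higher at the TES and within 1.5-fold at the TSS, a pattern of 14.5% of genes. Both ends come from the same libraries and are not independent measurements.

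**Figure D4:**
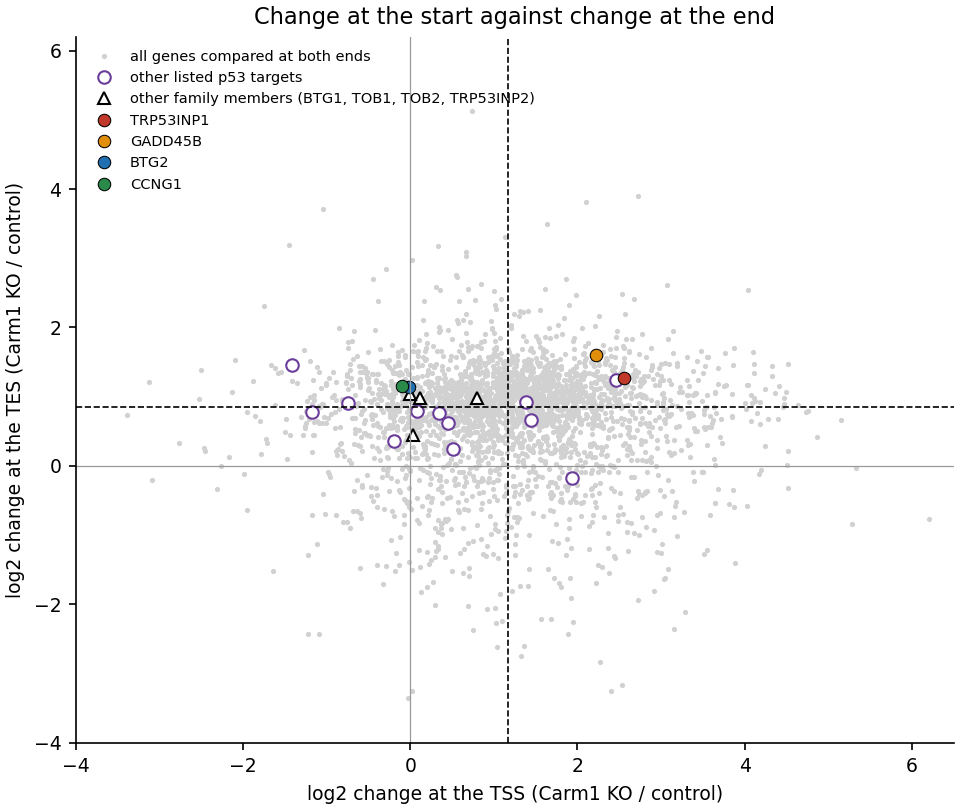
Log2 change (Carm1 KO / control) at the TSS against that at the TES for genes compared at both ends (grey), the 4 genes (filled), other listed p53 targets (open circles) and other family members (triangles); dashed lines are the medians of all genes. BTG2 and CCNG1 sit together near 0 on the horizontal axis, and TRP53INP1 and GADD45B lie to the right at 2.55 and 2.22.

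A wider list of 51 p53 targets, which includes the 4 genes, had 16 listed at both ends. At the TSS its median log2 change was 0.40, against 1.17 for all genes. Without the lowest 10% of mean ratios, which leaves 10 of the 16, the list median was 0.95, against 1.21 for all genes. The list genes left out are CCNG1, SERTAD1, MDM2, PLK2, SESN2 and GADD45G, whose TSS changes rest on small ratios. Those left still include TRP53INP1, GADD45B and BTG2, which were picked by their TSS changes. The other genes left had changes of -1.18 (XPC), -0.74 (RPS27L), -0.20 (CKAP2), 0.45 (DDIT4), 1.45 (POLK), 1.94 (RRM2B) and 2.46 (ERCC5). The middle of these is DDIT4, so the list median of 0.95 depends on the picked genes. As deposited 6 of the 16 were at least 1.5-fold higher (71.2% of all genes), 3 were lower (5.60% of all genes) and 7 lay in between. Relative to the median of all genes 4 of 16 were 1.5-fold higher (28.6% of all genes) and 10 of 16 were 1.5-fold lower (28.8% of all genes). Without the 4 genes the median was again 0.40, with 2 of 12 higher and 8 of 12 lower on the centred scale. At the TES the list median was 0.85, equal to that of all genes to 2 decimals, with 13 of 16 at least 1.5-fold higher (66.7% of all genes) and none lower (7.13% of all genes) as deposited. Relative to the median of all genes 2 of 16 were 1.5-fold higher there (11.6% of all genes) and 2 lower (22.0% of all genes). Without the 4 genes the TES median was 0.78, with 9 of 12 at least 1.5-fold higher and none lower as deposited. Of these 12 genes, 4 lay above the median TES change of all genes and 8 below it.

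The low end of the TSS list was held by SERTAD1, a cofactor of cell cycle transcription, with a ratio of 0.0150 in Carm1 KO and 0.0399 in control cells (-1.41). XPC, the damage sensor of nucleotide excision repair, had a TSS ratio of 0.0497 in Carm1 KO and 0.113 in control cells (-1.18). RPS27L, a ribosomal protein homologue, had 0.0559 in Carm1 KO and 0.0935 in control cells (-0.74). These 3 genes were all at least 1.5-fold higher at the TES, by log2 changes of 1.45 for SERTAD1, 0.79 for XPC and 0.91 for RPS27L. They were thus lower at the start and higher at the end, with a wider gap than BTG2 and CCNG1 had.

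MDM2, which CCNG1 acts on, had a TSS ratio of 0.0401 in Carm1 KO and 0.0378 in control cells (0.08). Its TES ratio was 3.59 in Carm1 KO and 2.08 in control cells (0.79). MDM2 thus had the same pattern as BTG2 and CCNG1, within 1.5-fold at the TSS and past it at the TES. PLK2, a polo-like kinase, did too (0.34 at the TSS, 0.76 at the TES), as did DDIT4, an inhibitor of mTORC1 (0.45 and 0.61). CKAP2, a spindle protein, was within 1.5-fold at both ends (-0.20 at the TSS, 0.37 at the TES).

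ERCC5, the XPG endonuclease of nucleotide excision repair, had changes close to those of TRP53INP1, with a TSS ratio of 0.895 in Carm1 KO and 0.163 in control cells (2.46) and a TES log2 change of 1.25. RRM2B, the p53-inducible subunit of ribonucleotide reductase, had 1.98 in Carm1 KO and 0.516 in control cells at the TSS (1.94). Its TES ratio was 6.08 in Carm1 KO and 6.83 in control cells (-0.17). POLK, a translesion polymerase, had log2 changes of 1.45 at the TSS and 0.67 at the TES, and SESN2, a sestrin that restrains mTORC1, had 1.38 and 0.92. In the start-to-end gradient 6 of 16 list genes had a quotient that was higher by at least 1.5-fold in Carm1 KO cells (19.8% of all genes) and 5 had one lower by that factor (44.2% of all genes).

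**Figure D5:**
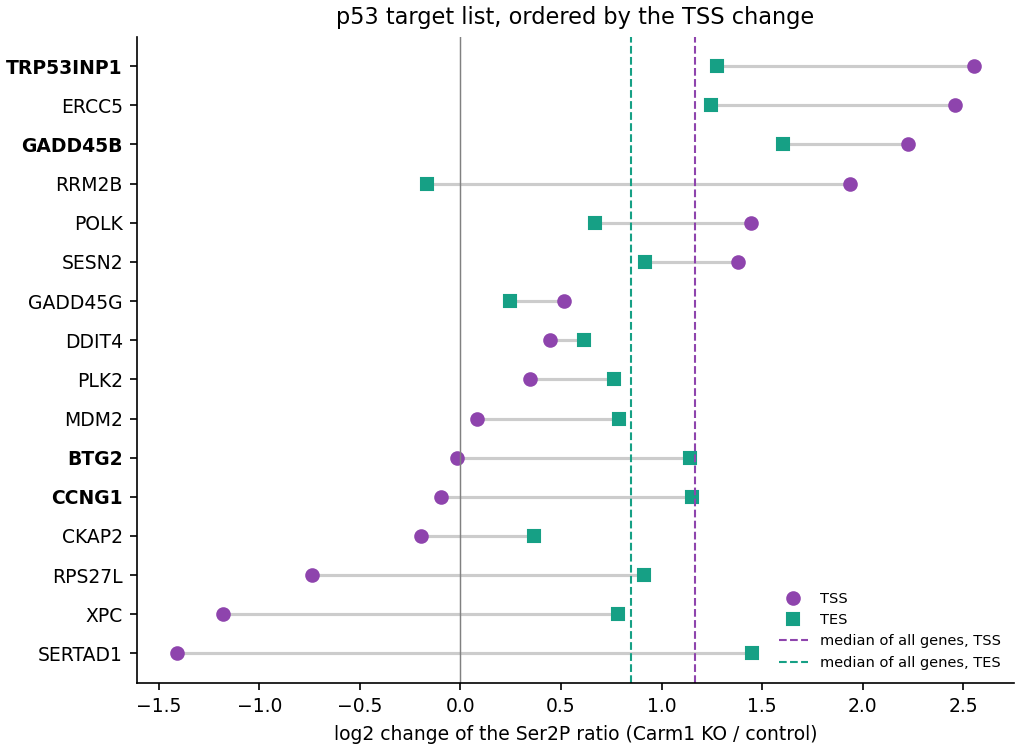
Log2 change (Carm1 KO / control) at the TSS (circles) and TES (squares) for the 16 listed p53 targets, ordered by the TSS change with the 4 genes in bold; dashed lines are the medians of all genes. The circles range from -1.41 at SERTAD1 to 2.55 at TRP53INP1, while the squares range from -0.17 at RRM2B to 1.60 at GADD45B.

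Relatives of the 4 genes were listed in 5 cases, and none of them lay above the median change of all genes at the TSS, which has as many genes above as below. Relative to that median 4 of 5 were at least 1.5-fold lower, as were 28.8% of all genes. GADD45G is also counted in the p53 target list. BTG1 (0.12) and TOB1 (0.00), antiproliferative relatives of BTG2, had nearly equal TSS ratios in both kinds of cell. TOB1 had 0.00897 in both Carm1 KO and control cells. At the TES the log2 change was 0.98 for BTG1 and 1.05 for TOB1, close to that of BTG2. TOB2 had 0.80 at the TSS and 0.99 at the TES. TRP53INP2, an autophagy regulator related to TRP53INP1, had a TSS ratio of 0.161 in Carm1 KO and 0.158 in control cells (0.03), unlike TRP53INP1. GADD45G, related to GADD45B, had a TSS ratio of 0.0284 in Carm1 KO and 0.0199 in control cells (0.51) and a TES log2 change of 0.25.

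For 11 regulators of p53 the median TSS log2 change was 1.35, against 1.17 for all genes, and 6 were at least 1.5-fold higher (71.2% of all genes) and none lower (5.60% of all genes). A further 3 regulators were listed at 0 at the TSS in at least 1 condition and had no fold. MDM2 is counted both here and in the p53 target list. TRP53, the gene of p53 itself, had a TSS ratio of 0.212 in Carm1 KO and 0.0834 in control cells (1.35). Its TES ratio was 2.97 in Carm1 KO and 2.80 in control cells (0.09), so it was past 1.5-fold at the start and not at the end, the reverse of BTG2 and CCNG1. The ends of the TSS range were SETD7, a lysine methyltransferase (3.72), and RCHY1, a p53 ubiquitin ligase (-0.35). At the TES the median of 14 regulators was 0.69, against 0.85 for all genes, and 9 were higher (66.7% of all genes) and none lower (7.13% of all genes), between EP300 (-0.28) and PRMT5 (1.39).

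Partners of the 4 proteins were few in the tables, and their counts past 1.5-fold stand beside shares of all genes of 71.2% higher and 5.60% lower at the TSS and 66.7% higher and 7.13% lower at the TES. Among PP2A subunits, partners of CCNG1, 5 of 6 were at least 1.5-fold higher at the TSS (median 1.77). At the TES 4 of 6 were higher and 1 lower (median 0.72), from PPP2R5E (-0.81) to PPP2R1B (2.46). The GADD45B partners CDK1 (1.67), PCNA (0.05) and CCNB1 (-0.77) differed at the TSS, and all 3 were higher at the TES (0.79 to 1.20). Of CCR4-NOT subunits, partners of BTG2, CNOT3 (2.69) and CNOT9 (0.71) were higher at the TSS and CNOT4 (-0.06) was not. At the TES CNOT3 had 1.39, CNOT9 1.26 and CNOT4 0.37. GABARAP and GABARAPL1, of the ATG8 family that TRP53INP1 binds, had log2 changes of 1.35 and 2.20 at the TSS and of 1.10 each at the TES.

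The genes nearest in pattern were found by Euclidean distance over the log2 values of the 4 ratios, among 2573 genes without predicted and small RNA genes. Nearest to TRP53INP1 were PRMT5, an arginine methyltransferase gene (distance 0.28), GPR19 (0.52) and SLC39A6 (0.56). PRMT5 had a TSS ratio of 0.149 in Carm1 KO and 0.0279 in control cells and a TES ratio of 3.60 in Carm1 KO and 1.37 in control cells. Nearest to BTG2 were RPL18 (0.29), POLE3 (0.36) and RPL17 (0.43), and nearest to CCNG1 were SOWAHC (0.29), RETSAT (0.56) and LGALS1 (0.57). GADD45B had no neighbour that close, with APBB3 (0.68), CALR (0.74) and RPS16 (0.86) nearest. The 4 genes were further from each other, between 2.01 for GADD45B and CCNG1 and 3.01 for TRP53INP1 and CCNG1. The TSS ratios whose changes set the choice of the 4 genes enter these distances. The nearest genes are also the closest of 2573 by definition, so nothing is read from the comparison with distances among the 4. All distances rest on 1 library per value.

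The TES change differs with gene length in these tables, but not steadily. Its median was 0.86 in the shortest of 10 groups, 1.04 in the group of 9161 to 13069 bp and -0.09 in the longest. Medians below that of the shortest group were found only from 24989 bp upwards, and the 4 genes are of short to middle length. The groups hold like numbers of genes, and TRP53INP1 lay in a TES group of 13069 to 18247 bp with a median log2 change of 1.00. GADD45B lay in the shortest group, up to 3170 bp (0.86), BTG2 in the group of 3171 to 5673 bp (0.89) and CCNG1 in that of 5722 to 9145 bp (1.00). Relative to their own group the TES changes were 0.28 for TRP53INP1, 0.74 for GADD45B, 0.25 for BTG2 and 0.15 for CCNG1. At the TSS they were 1.32 for TRP53INP1, 1.20 for GADD45B, -1.10 for BTG2 and -1.27 for CCNG1.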

How the data were processed

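Reads were processed by the authors with cutadapt 1.18 and TopHat2 2.1.1 on mm10 (GRCm38), per the submitters' processing notes. The deposited tables give, per gene, a linear ratio that the authors formed from Ser2P signal and a divisor; the sources used here state no counting windows, divisor, scaling or rule for gene choice. The file headers call it a fraction, but values exceed 1. The deposited difference score equalled Carm1 KO minus control within 1e-09 and was not used further. Columns were assigned to groups by name.

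The change was log2(Carm1 KO / control) without pseudocount for genes above 0 in both, described as higher or lower past 1.5-fold (0.58 on the log2 scale), with ranks and percentiles among all genes (ties at mid-rank). With 1 library per group no test was run. The median, or that of the length group, was subtracted as an alternative, as were pseudocounts of 0.01 (TSS) and 0.1 (TES), a 2-fold threshold and a filter on the lowest 10% of mean ratios. Gene lengths came from GENCODE M21 (3071 of 3117 symbols matched), promoters from RefSeq GRCm38.p6. Members and lists were chosen with earlier results of these data known. Named genes were the 4 members, list genes past 1.5-fold or at the extremes of a list, the 3 nearest genes in pattern and genes with the same ratio; TRP53, BTG1, TOB1, MDM2 and other list genes within 1.5-fold were named after their values were seen. Python 3.11.15, pandas 2.3.3 and matplotlib 3.10.9 were used. The calculation was tested with known changes put on the control ratios, which checks the arithmetic only and not the error of a value.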

Additional observations from a re-analysis of the deposited data

How the results depend on the processing

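Depth is unknown and there is 1 library per group, so no alternative can show the error of a value. Subtracting the median of all genes left TRP53INP1 (0.43), BTG2 (0.29) and CCNG1 (0.30) within 1.5-fold at the TES and put BTG2 (-1.19) and CCNG1 (-1.26) past 1.5-fold lower at the TSS. Subtracting the median of the length group did the same, giving 0.28, 0.25 and 0.15 for these TES values and -1.10 and -1.27 for the TSS values. The end-to-start shift of GADD45B, -0.62, came to -0.22 relative to the median of all genes and -0.30 with pseudocounts, within 1.5-fold. The median change of the p53 target list turned to -0.77 at the TSS and came to 0.000764 at the TES once the median of all genes was subtracted. Without the lowest 10% of mean ratios the TSS median of the list was 0.95, over 10 genes in place of 16. These 10 include TRP53INP1, GADD45B and BTG2, picked by their TSS changes, and among the others the middle gene was DDIT4 (0.45). This filter removes CCNG1 at the TSS and GADD45B and BTG2 at the TES, which then have no rank. With a 2-fold threshold no TSS or TES change of the 4 genes changed its call; of the shifts, for which this threshold was chosen after seeing the data, that of GADD45B (-0.62) no longer passed. Of 29 alternative percentiles of change, 28 moved by under 5 points; that of GADD45B at the TSS was 75.3 with the pseudocount, against 83.1. No paired analysis was possible because each group has 1 library.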

Other observations

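Split by gene length after the values were seen, and leaving out the 4 genes because they were picked by their TSS changes, the other 12 listed p53 targets had these TSS values. Among the 7 longer genes (17660 to 61890 bp) 4 lay above the median change of all genes, and their median log2 change was 1.38. Among the 5 shorter genes (1791 to 5799 bp) none did, and their median was 0.34. SERTAD1, GADD45G and PLK2 of the shorter genes, and MDM2 and SESN2 of the longer, were in the lowest 10% of mean TSS ratios. At the TES the medians were 0.79 in the longer and 0.76 in the shorter genes. Over all genes the TSS medians of the 10 length groups lay between 1.03 and 1.32. The split has no test, and whether length has a part in it was not tested.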
